A study of Rattus norvegicus with 4 samples.

Results

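The starred arms of miR-140 and miR-423 were the most abundant starred names in these libraries of rat liver, and their plain partners were almost absent. The 4 names rno-miR-140, rno-miR-140*, rno-miR-423 and rno-miR-423* were taken by name from the 680 miRNA names listed. They were chosen by their levels in these same libraries, which showed a dominant starred arm, so their arm shares, ranks and levels are given as descriptions without a test. Small RNA libraries of rat liver tissue were compared between hepatic fibrosis (2 samples) and normal liver (2 samples). The labels give no strain, age, agent that caused the fibrosis or number of animals, and do not say that replicates came from separate animals. The second fibrosis file and the second normal file hold the same value for each of the 680 names, with 0 differences, so they were counted as 1 library. That library is called the duplicated library here, since its labels put it in both tissues. The column header of the second normal file is not its sample title, while the other 3 headers are. The distinct libraries are therefore 3: replicate 1 of fibrosis, called the fibrosis library below, replicate 1 of normal liver, called the normal library, and the duplicated library.

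A miRNA precursor folds into a hairpin, and the enzyme Dicer cuts it into a short duplex with 1 strand from each side of the stem. Usually 1 strand is loaded into an Argonaute protein and guides repression of messenger RNAs through its seed, bases 2 to 8, while the other is degraded. The older naming used in these files put an asterisk on the strand thought to be the minor one, and the present naming marks the side of the stem instead (the suffix 5p or 3p). Mammalian miR-140 is best known from cartilage and lies within Wwp2, a gene for a ubiquitin ligase. miR-423 lies within Nsrp1, a gene for a splicing regulator, and is often used as a reference in small RNA measurements. In the RefSeq gene table of the rat both hairpins fall within the span of these host genes, on the host's strand. That table gives gene spans only, so exon or intron is not stated here.

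The sequences of the 2 hairpins are given with the mature strands that the names may refer to, except miR-423-3p, for which no mature entry was matched. Both hairpins and 3 mature strands were matched by name in RefSeq (build GRCr8, not the rn5 build of the submitters' processing notes). The hairpin of miR-140 lies at chr19:52375293-52375391 on the plus strand and that of miR-423 at chr10:62412272-62412350 on the minus strand. Capitals mark the annotated mature strands in the hairpins.
Mir140 hairpin: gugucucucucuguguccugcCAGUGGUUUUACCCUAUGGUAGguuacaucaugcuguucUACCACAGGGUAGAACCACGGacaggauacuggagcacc
Mir423 hairpin: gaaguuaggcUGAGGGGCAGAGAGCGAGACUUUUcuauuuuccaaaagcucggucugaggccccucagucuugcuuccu

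In the mature strands, capitals mark the seed.
rno-miR-140-5p: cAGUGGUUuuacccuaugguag
rno-miR-140-3p: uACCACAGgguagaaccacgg
rno-miR-423-5p: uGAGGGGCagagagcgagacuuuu
rno-miR-3573-5p: uGAGGGGCagugauagaaagga

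In the older naming, plain miR-140 was miR-140-5p and miR-140* was miR-140-3p. For miR-423 in human and mouse, the plain name was miR-423-3p, and rat miR-423* would then be the miR-423-5p strand printed above. The files hold no sequences, so the match of values to these strands rests on the names. The strands do not share a seed with each other. No other mature rat miRNA in the table has the seed of either miR-140 strand. The seed of miR-423-5p is shared with rno-miR-3573-5p, which is printed for that reason and was listed at 0 in the 3 distinct libraries. No other mature strand in the table came within 3 mismatches of the 3 member strands when compared from the 5′ end. G and C made up 57.1% of miR-140-3p, 54.2% of miR-423-5p and 45.5% of miR-140-5p, against a median of 47.8% over 693 mature names (quartiles 40.9% and 54.5%).

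The values are reads per 1000000 reads (RPM), and reads were recovered from them as whole multiples of what 1 read is worth. The 3 distinct libraries were scaled to between 6357069 and 7070374 reads, and 3339603 to 3653412 of these fell on listed miRNAs. A name with 0 reads may have had a level of up to 0.424 to 0.472 RPM (3 reads). Intervals and limits cover counting error only. The hepatocyte miRNA miR-122 held 47.2% to 50.9% of the listed reads and the let-7 names 44.7% to 49.0%. Markers of other cell types fixed as 5 lists (18 names listed) summed to 749 RPM in the fibrosis library, 547 RPM in the normal library and 1130 RPM in the duplicated library. Most of each sum was miR-199a-3p, a mesenchymal miRNA, at 592, 350.5 and 903.4 RPM in the same order. Of the mesenchymal list, miR-214 had the same order (3.31, 2.55 and 5.66 RPM) and the remaining members did not. miR-143 was highest in the normal library (62.1, 97.3 and 91.2 RPM). miR-145 (9.21, 13.7 and 6.92 RPM) and miR-199a-5p (2.01, 2.40 and 1.42 RPM) were lowest in the duplicated library. The leukocyte sums were 49.6, 37.8 and 70.5 RPM, the endothelial 7.77, 6.51 and 10.9 RPM, the striated muscle 19.7, 28.1 and 38.2 RPM and the erythroid 2.88, 7.78 and 2.04 RPM. Most of each leukocyte sum was miR-142-5p (39.4, 26.4 and 56.0 RPM). miR-142-3p, alone in that list, was highest in the normal library (0.432, 0.707 and 0.629 RPM). Most of each striated muscle sum was miR-499 (17.4, 22.9 and 31.8 RPM). Among the defining markers, miR-133a of striated muscle was listed at 0 in the fibrosis library and in the duplicated library.

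miR-140* stood at nearly the same level in the 3 distinct libraries. It had 880 RPM in the fibrosis library (6118 reads), 868 RPM in the normal library (6138 reads) and 860 RPM in the duplicated library (5468 reads). It took rank 13 of the 680 names in each of these libraries. No library stood apart, and the ratio of highest to lowest was 1.02.

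Plain miR-140, the strand on which the older naming placed the function, was seen as 1 read in all. That read was in the fibrosis library (0.144 RPM), where the name shared rank 204 with other names of 1 read. The normal library and the duplicated library had 0 reads.

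miR-423* was as abundant as miR-140* but not as even. It had 1075 RPM in the fibrosis library (7470 reads), 1237 RPM in the normal library (8747 reads) and 630 RPM in the duplicated library (4002 reads). Its rank was 11 in the fibrosis library, 11 in the normal library and 15 in the duplicated library. The duplicated library was the low one, and the other 2 lay closer together.

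Plain miR-423 was present at a low level in each library. It had 1.87 RPM in the fibrosis library (13 reads), 1.84 RPM in the normal library (13 reads) and 1.42 RPM in the duplicated library (9 reads). Its rank lay between 127 and 134.

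**Figure D1:**
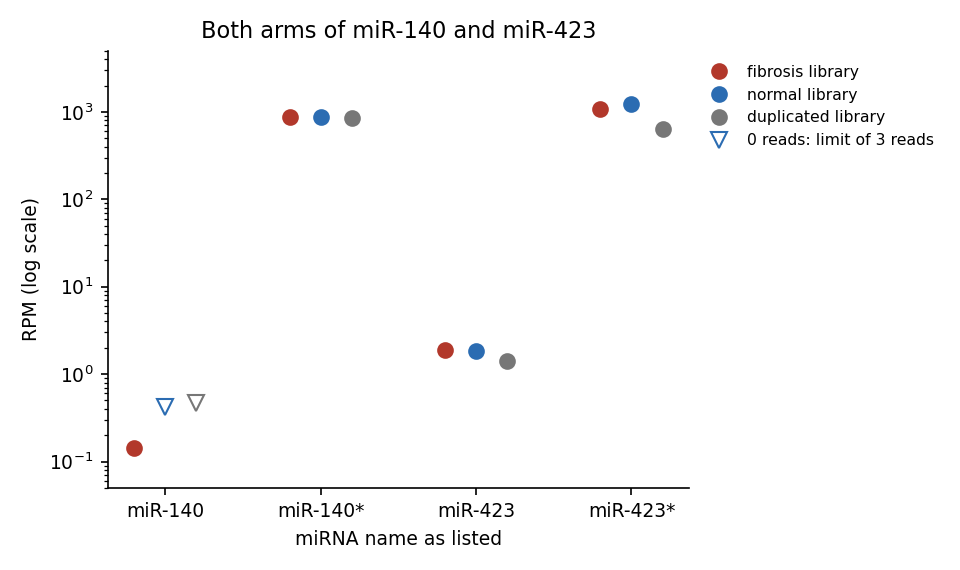
RPM (log scale) of the 4 names in the fibrosis library, the normal library and the duplicated library, 1 point per library, with open triangles at the 3-read limit where the count was 0. The starred names lie between 630 and 1237 RPM and the plain names at or below 1.87 RPM.

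The order of the starred arms differed between libraries. miR-423* over miR-140* was 1.22 in the fibrosis library (95% exact counting interval 1.18 to 1.26) and 1.43 in the normal library (1.38 to 1.47). In the duplicated library it was 0.732 (0.702 to 0.762), so miR-140* led there. This ratio is taken within a library and does not depend on the scaling between libraries.

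Together the starred arms of miR-140 and miR-423 made up most of what carried an asterisk. Some strands, such as both strands of miR-199a and miR-30b-3p, are listed with a suffix instead and are not among the starred names. Of these, miR-199a-3p had 592, 350.5 and 903.4 RPM in the fibrosis, normal and duplicated libraries. Its partner miR-199a-5p had 2.01, 2.40 and 1.42 RPM. miR-140* and miR-423* held 84.9% of the reads on the 242 starred names in the fibrosis library, 84.6% in the normal library and 80.2% in the duplicated library. The next starred name in each library was miR-122*, the minor strand of the hepatocyte miRNA, at 137, 161 and 141 RPM in the same order. Outside miR-122 and the let-7 names, miR-140* and miR-423* together held 9.55% of the listed reads in the fibrosis library, 9.42% in the normal library and 7.43% in the duplicated library.

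The starred arm held nearly all reads of both hairpins. For miR-140 its share was 99.98% in the fibrosis library (95% exact binomial interval 99.91% to 99.9996%), with 6118 starred reads to 1 plain read, a ratio whose counting interval ran from 1098 to 241687. In the normal library the starred arm was at least 2046-fold higher than the plain arm, taking the limit of 3 reads in that library for the plain arm. In the duplicated library it was at least 1823-fold higher on the same limit. Counts of 0 allow the plain arm a share of up to 0.0489% in the normal library and 0.0549% in the duplicated library.

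For miR-423 the starred share was 99.83% in the fibrosis library (99.70% to 99.91%), 99.85% in the normal library (99.75% to 99.92%) and 99.78% in the duplicated library (99.57% to 99.90%). Starred reads outnumbered plain reads 575-fold in the fibrosis library (336 to 1080), 673-fold in the normal library (393 to 1264) and 445-fold in the duplicated library (234 to 973). These intervals overlap, and a difference in arm use between the libraries was not tested. The lower level of miR-423* in the duplicated library came with a starred share close to those of the other libraries. The 9 to 13 plain reads limit what could be seen.

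Among the 205 hairpins listed with a plain and a starred name, 73 had at least 10 reads on both arms together in each distinct library. The starred arm held over 50% of the reads in all 3 libraries for 10 of these 73 (13.7%), the count through which the members were chosen. The plain arm did so for 62, and miR-151 changed sides on few reads. Its starred reads were 28 of 38 in the fibrosis library, 19 of 39 in the normal library and 17 of 37 in the duplicated library. The median starred share was 0.169%. Of the 73, 3 had a starred share over 95% in each library: miR-140, miR-423 and miR-511.

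The other 8 hairpins with a dominant starred arm were far less abundant than miR-140 and miR-423. The highest was miR-322*, from a cluster with miR-503, at 50.8 RPM in the fibrosis library, 41.2 RPM in the normal library and 62.6 RPM in the duplicated library. Its starred share was 92.4%, 93.3% and 93.9% in these libraries. miR-511*, known from macrophages, had 12.1, 13.2 and 23.0 RPM with starred shares of 100%, 98.9% and 100%. miR-455*, which lies within a fibrillar collagen gene, had 6.19, 7.21 and 9.60 RPM with starred shares of 93.5%, 92.7% and 96.8%. miR-365*, miR-126*, miR-28*, miR-505* and miR-802* had less one-sided shares, between 53.3% and 82.6%. In the duplicated library their starred reads were, in this order, 24 of 45, 52 of 69, 20 of 33, 18 of 29 and 15 of 19. No interval was computed for these shares, so some may not differ from an even split.

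In contrast, the 3 of these 73 hairpins with the most reads used the plain arm almost alone. Names without a starred partner of exactly the same name, such as let-7a, let-7c and let-7f, are not among them. The starred share of miR-122 was 0.0562% in the fibrosis library, 0.0610% in the normal library and 0.0569% in the duplicated library. That of let-7b was at most 0.000476%, and that of miR-192, another hepatocyte miRNA, at most 0.0147%.

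**Figure D2:**
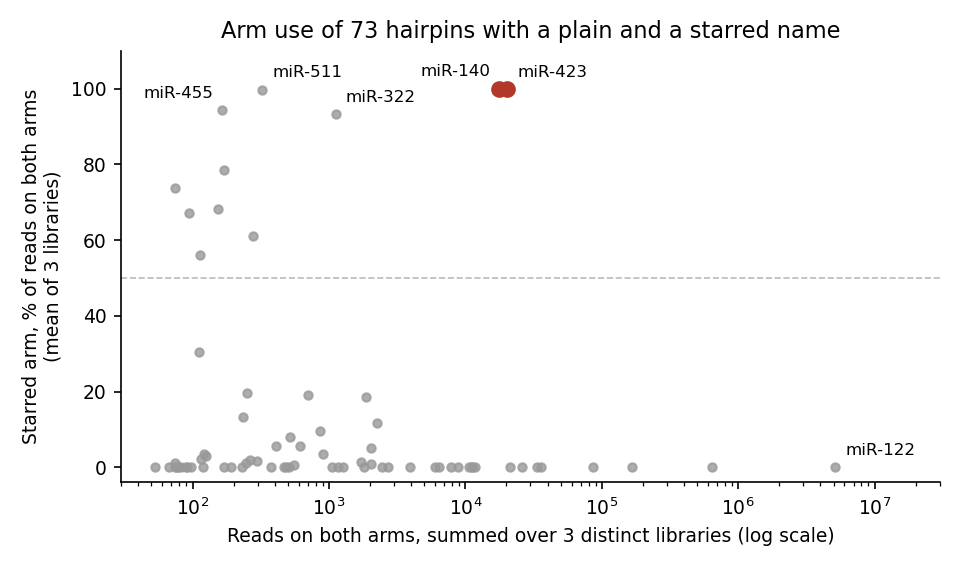
Starred share of the reads on both arms (%, mean of 3 distinct libraries) against the reads on both arms summed over these libraries (log scale), 1 point per hairpin, with the dashed line at 50%. miR-140 and miR-423 (red) lie near 100% with 17725 and 20254 reads, to the right of the other 8 hairpins whose starred share was over 50% in each library.

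The fibrosis library and the normal library are the only libraries that stand under a single label each, so their ratio describes these 2 libraries and has no replicate check. miR-140* had a ratio of the fibrosis library to the normal library of 1.01 (95% counting interval 0.978 to 1.05) in the deposited RPM. The interval excluded 1 with the reads on listed miRNAs as the total (1.002 to 1.08), with TMM (1.03 to 1.10) and with DESeq2 size factors (1.02 to 1.10), and the ratio turned to 0.986 (0.952 to 1.02) with miR-122 left out of the total. miR-423* had a ratio of 0.869 (0.842 to 0.896), with an interval that excluded 1. In RNA of whole tissue, fewer cells of a type and less RNA per cell cannot be told apart. Plain miR-423 had a ratio of 1.02 (0.434 to 2.38) on 13 reads in each library, and plain miR-140 gave no ratio with 1 read against 0. Of the 4 members, the 2 starred arms reached a mean of 10 RPM in this pair. Neither passed 1.5-fold, against 7.89% of the 76 names that reached this level. Intervals excluded 1 for 57.9% of these 76 names, so the interval of miR-423* is common among them, and the median ratio over them was 0.926.

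The comparison that the labels imply, with all 4 files, called no member. Over 294 names seen in any file, limma found 0 (0%) below an adjusted p of 0.05 on the log2(RPM + 1) scale, while 4 names lay below an unadjusted p of 0.05. edgeR's quasi-likelihood test and DESeq2 on the recovered reads also called 0, with 1 and 0 names at an unadjusted p under 0.05. The fitted log2 difference, fibrosis over normal, was 0.0099 for miR-140* (SE 0.23), -0.10 for miR-423* (SE 0.23), 0.0080 for plain miR-423 (SE 0.41) and 0.097 for plain miR-140 (SE 0.15). Each had an adjusted p of 1 from limma, and plain miR-140 entered the fit through its 1 read. With the same library in both groups this fit had little ability to call a miRNA. The duplicated library cancels between the groups, so these differences restate the fibrosis library over the normal library on a smaller scale. That log2 ratio of RPM was 0.020 for miR-140* and -0.20 for miR-423*. For miR-423* the sign depended on where the duplicated library was counted: the difference was -0.59 with it as fibrosis (SE 0.49, adjusted p = 0.72 from limma) and 0.28 with it as normal (SE 0.62, adjusted p = 0.92). For miR-140* it was 0.0032 (SE 0.081) and 0.026 (SE 0.090) under the same choices, each short of the threshold.

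Against the duplicated library, the starred arms parted. miR-423* in the duplicated library was 0.509 of its level in the normal library (0.490 to 0.528) and 0.586 of that in the fibrosis library (0.564 to 0.609). It took rank 4 from the lowest in both comparisons, over 73 and 72 names. Differences of at least 1.5-fold were found for 27.4% and 19.4% of the names in these comparisons, 16.4% and 12.5% on the lower side. miR-140* was 0.991 of its level in the normal library (0.955 to 1.03) and 0.977 of that in the fibrosis library (0.942 to 1.01), both with intervals that included 1 in the deposited RPM. Of the 4 other scalings, TMM alone kept 1 within both of these intervals. The summed markers of 4 of the 5 other cell types were highest in the duplicated library and those of erythroid cells lowest there, as given above, and their part in the lower miR-423* was not tested.

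miR-423* was 1 of 7 names, of 73 with a mean of at least 10 RPM, that lay at least 1.5-fold below both other libraries in the duplicated library. This cut was chosen after the values were seen. The others were miR-30a*, miR-92a, miR-378, which lies within a regulator of mitochondrial genes, miR-10a-5p, miR-25 and miR-26a. miR-378 had 488 RPM in the fibrosis library, 511 RPM in the normal library and 283 RPM in the duplicated library. miR-26a had 420, 443 and 274 RPM in the same order. In the opposite direction, 2 of the 73 names lay at least 1.5-fold above both.

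**Figure D3:**
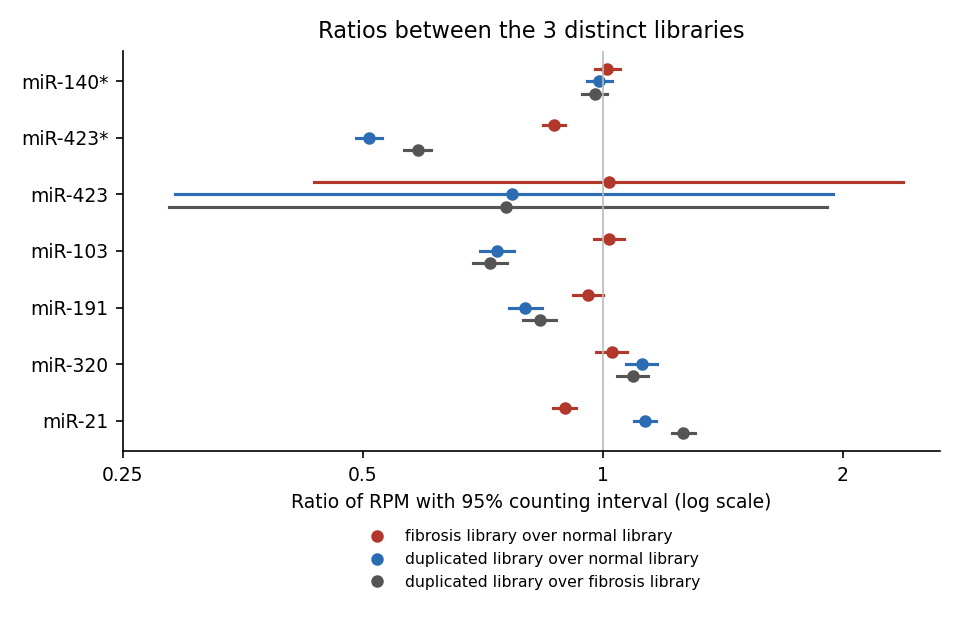
Ratios of RPM between the 3 distinct libraries (log scale) with 95% exact counting intervals for the starred members, plain miR-423 and 4 miRNAs for comparison. In the deposited RPM plotted here the intervals of miR-140* all include 1, which no other scaling tried kept for all 3 ratios, while miR-423* lies at 0.509 and 0.586 in the duplicated library relative to the normal library and the fibrosis library.

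Steadiness across the 3 distinct libraries placed the starred members at opposite ends. The ratio of highest to lowest RPM was 1.02 for miR-140*, rank 1 of 73 names from the steadiest, and 1.97 for miR-423*, rank 68. The median over the 73 names was 1.37 and the widest was 3.66, for miR-146b. The mean of miR-140* was 869 ± 10.1 RPM and that of miR-423* 980 ± 315 RPM (SD, n = 3 distinct libraries of both labels). In the deposited RPM the pairwise counting intervals all included 1 for 8 of the 73 names, and of the 27 names with a mean of at least 100 RPM this held for miR-140* alone. It did not hold for miR-140* under any of the 4 other scalings tried (reads on listed miRNAs, TMM, DESeq2 size factors and a total without miR-122). Without the duplicated library, the ratio for miR-423* was 1.15, at rank 32 of 73, and that of miR-140* was 1.01, at rank 4. Without the fibrosis library miR-140* was at rank 3, and without the normal library at rank 8.

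Names close to the members in abundance varied more than miR-140*, which follows from its being the steadiest of all names ranked. miR-101b had a ratio of highest to lowest of 1.20, miR-21, a miRNA of injury responses, 1.26, miR-320 1.12, miR-29a, a repressor of collagen genes, 1.14, miR-26b 1.48 and miR-199a-3p 2.58. Only miR-199a-3p among these exceeded miR-423*.

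A list of 9 miRNAs often used to normalize small RNA measurements gives a further scale. Limma called 0 of the 9 in either direction, as it called 0 of all 294 names. The ratio of highest to lowest was 1.14 for let-7a, 1.25 for miR-191, 1.29 for miR-93, 1.36 for miR-16, 1.38 for miR-103, 1.61 for miR-26a and 1.65 for miR-25. miR-451, an erythroid miRNA, had 3.35 on 11 to 41 reads, and miR-425 had at most 3 reads. miR-140* thus lay below all 8 of these ratios and miR-423* above 7 of the 8. miR-103 and miR-191 were lower in the duplicated library, like miR-423* but by less. The rest of the list was also lowest there, except let-7a and miR-93. let-7a was highest there (50226, 54540 and 57329 RPM in the fibrosis, normal and duplicated libraries). miR-93 lay between the other libraries (4.17, 5.37 and 4.72 RPM in the same order). miR-103 had 595 RPM in the fibrosis library, 584 RPM in the normal library and 430.1 RPM in the duplicated library, and miR-191 had 567, 591 and 473 RPM.

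**Figure D4:**
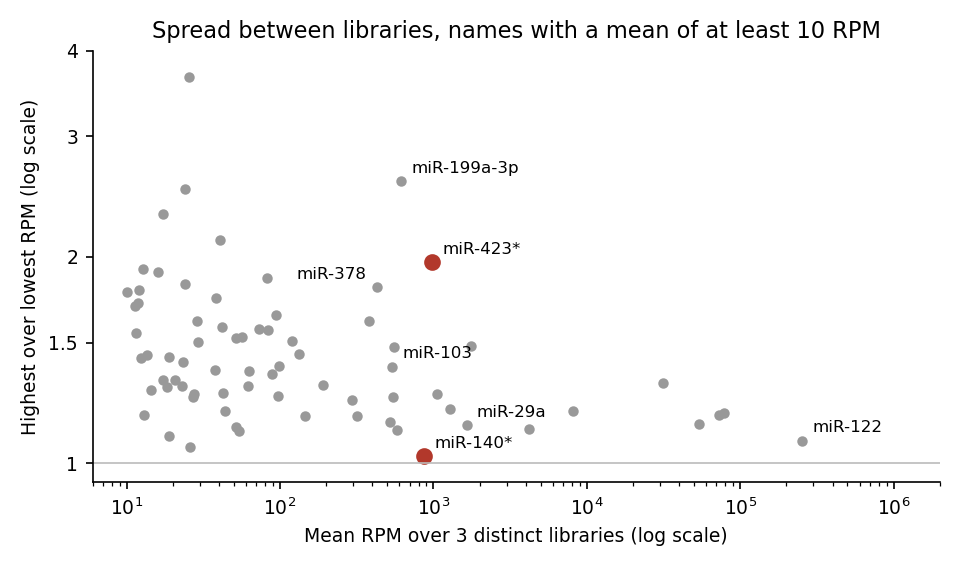
Ratio of highest to lowest RPM over the 3 distinct libraries (log scale) against mean RPM (log scale), 1 point per name, for the 73 names with a mean of at least 10 RPM. miR-140* (red, 1.02) is the lowest point and miR-423* (red, 1.97) is among the highest at a like abundance.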

How the data were processed

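Per the labels' protocols, an Illumina kit for small RNA was used on total liver RNA. CASAVA 1.4 and build rn5 are named in the submitters' processing notes. Not given in the sources used here are the aligner, the version of the miRNA annotation and how multiply matching reads were assigned. The deposited values are RPM computed by the authors. Dividing by the value of 1 read gave whole reads for 100% of values above 0, within 0.01 reads.

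Arm shares and ratios carry exact (Clopper-Pearson) 95% intervals (Python 3.11.15, scipy 1.17.1). Groups were tested with limma 3.58.1 (R 4.3.3) on log2(RPM + 1), which understates changes of low names. The variance was trended, and p-values were adjusted by Benjamini-Hochberg over all names. The fit was also run on simulated data, with an outcome not given here, and no result above rests on that run. edgeR 4.0.16 and DESeq2 1.42.0 on recovered reads called 0 and were alternatives, beside scaling, pseudocount, filters and left-out libraries. The p-values measure only the spread between these samples, which may be technical. With the duplicated library in both groups, this spread may also hold a difference of tissue. In the main limma fit it was taken wholly from the trend over all names. miR-140* and miR-423* thus had nearly the same SE (0.234 and 0.235), although miR-423* varied more between libraries. The members and lists were chosen with earlier results of these data known. Names given besides the members are the 8 starred-dominant and 3 plain-dominant hairpins with the most reads among those listed under exactly matching plain and starred names, the 5 names nearest each starred member in abundance, a normalizer list of 9, cell type markers, and names outside these rules that were chosen after their values were seen (those low in the duplicated library, miR-146b and miR-151).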

Additional observations from a re-analysis of the deposited data

How the results depend on the processing

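The count of miRNAs called stayed at 0 under each alternative, leaving out each sample included. No paired comparison is set by the labels, and the 2 replicate numbers share only a number: with a replicate block limma called 0, and the differences were 0.097 for plain miR-140, 0.0099 for miR-140*, 0.0080 for plain miR-423 and -0.10 for miR-423*. The deviations of same-numbered samples correlated at 0.72, which the identical second files fix in part. Leaving out each sample gave differences from -0.0067 to 0.026 for miR-140*, 0.097 to 0.19 for plain miR-140 (3 fits, since without fibrosis replicate 1 it has no read left and no value), -0.12 to 0.13 for plain miR-423 and -0.59 to 0.39 for miR-423*. With the identical files counted once, plain miR-423 turned to -0.11 as fibrosis, and miR-423* to 0.28 as normal. These fits differ only in the group of the duplicated library and equal those without normal or fibrosis replicate 2. For plain miR-423 they rest on 9 to 13 reads in a library. The sign also turned without fibrosis replicate 1 for miR-140* (-0.0067) and plain miR-423 (-0.12), and without normal replicate 1 for miR-423* (0.39). The fits without a replicate 1 restate, in turn, duplicated over normal and fibrosis over duplicated on a smaller scale.

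The 6 names past 1.5-fold (5 higher, 1 lower) became 28 (12 and 16) at a mean of at least 1 RPM and 1 at 2-fold. The division was 8 and 1 with reads on listed miRNAs as the total, 8 and 0 with TMM or DESeq2 size factors, and 4 and 2 without miR-122. The fibrosis library over the normal library gave 1.038 (1.002 to 1.076) with listed reads, 1.062 (1.025 to 1.101) with TMM and 1.060 (1.023 to 1.099) with DESeq2 size factors for miR-140*, intervals that exclude 1, and 0.910 with TMM and 0.909 with DESeq2 size factors for miR-423*. The ratio of highest to lowest for miR-140* was 1.065 with listed reads, 1.062 with TMM, 1.073 with DESeq2 size factors and 1.10 without miR-122, at ranks 1 to 3 of 73. For miR-423* it was 1.89 with TMM, 1.82 with DESeq2 size factors and 2.15 without miR-122, at ranks 63 to 69 over the scalings.

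Leaving out a library at a time gave ratios of highest to lowest from 1.01 to 1.02 for miR-140*, 1.02 to 1.32 for plain miR-423 and 1.15 to 1.97 for miR-423*. Ranks by mean ran from 12 to 13, 230 to 273 (plain miR-140), 128 to 134 (plain miR-423) and 11 to 13 (miR-423*). Starred shares ran from 99.99% to 100% for miR-140 and from 99.80% to 99.84% for miR-423, and starred-dominant hairpins from 10 to 11. They numbered 12 of 80 at 5 reads and 4 at 50 reads. Depth limits the plain arms most, with at most 13 reads.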
